A study of Bos taurus with 2 samples.

Results

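The acetylcholine receptor of the neuromuscular junction is an ion channel in the muscle membrane that opens when the motor neuron releases acetylcholine, and so starts contraction. It is a ring of subunits encoded by CHRNA1 (alpha, which is present more than once in the ring), CHRNB1 (beta), CHRND (delta) and either CHRNG (gamma, in the fetal receptor) or CHRNE (epsilon, in the adult receptor). Receptors are gathered under the nerve ending by agrin (AGRN), a ligand secreted by the nerve and also made in other forms elsewhere, which acts through the receptor tyrosine kinase MUSK and its cytoplasmic adaptor DOK7, while rapsyn (RAPSN) holds the receptors together inside the cell. Muscle cells are known to switch on most of these genes when they begin to differentiate, before any nerve reaches them. MYOD1 and MYOG are transcription factors of that programme.

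These 9 genes, each found once by its symbol in the deposited list of 21867 genes, were followed through cultured bovine satellite cells, the stem cells of skeletal muscle. The cells came from longissimus muscle of 1 Holstein bull calf aged 2 weeks and had grown for 1 week in medium with 10% fetal bovine serum, without nerve and without a differentiation step. There was 1 group and no treatment, so the comparisons here are between clusters of cells. From the same cells, 2 libraries (replicates 1 and 2) were made with the 10x Genomics platform, which marks each captured RNA near its 3′ end with the barcode of its cell and an identifier of the molecule (UMI). Differences between the libraries are therefore those of preparation, and no other animal was measured.

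Replicate 1 held 9939 cells and 145631299 UMIs, and replicate 2 held 9157 cells and 137818568 UMIs. The authors had divided the cells into 15 clusters, whose numbers are used here, and the cluster of each cell was recovered exactly from the averages they deposited. Clusters 7, 13, 14 and 15 were shallow, with medians of 647 to 2513.5 UMIs per cell, and cluster 10 had a median of 5398.5. In all, 27 barcodes occurred in both libraries, and 7.31% of the cells were called doublets and kept. The satellite cell marker PAX7 was rare (176 UMIs), whereas MYOD1 had 114882 UMIs. MYOG was highest in cluster 12 (18.1 and 19.2 UMIs per 10000 UMIs in replicates 1 and 2), and cluster 3 followed (6.61 and 6.76). Cluster 1 had high MYOD1 (5.30 and 5.06) with little MYOG (0.80 and 0.95), and cluster 8 was low in MYOD1 (0.882 and 0.902), with MYF5 (1.64 and 1.49) at the level of cluster 1 (1.60 and 1.5). Cluster 9 had the fibro-adipogenic marker PDGFRA (1.58 ± 0.0744, SD, n = 2 libraries) and is used as the cells that should lack the receptor. PDGFRA was also high in the shallow cluster 7 (1.23 and 1.74), which had high CHRNA1 and CHRNG, unlike cluster 9.

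All 9 genes were detected, but at very different depths. RAPSN had 56351 UMIs and was found in 79.8% of cells, CHRNG had 21818 UMIs in 36.04%, and CHRNA1 had 15324 UMIs in 44.3%. CHRNB1 (7712 UMIs) and DOK7 (4086) were intermediate, and CHRND (1391) and MUSK (1148) were sparse. At the bottom, CHRNE had 298 UMIs in 293 cells and never more than 2 in a cell, and AGRN had 428 UMIs in 421 cells. Between the subunits that replace each other, CHRNG gave 65.9 UMIs for each CHRNE UMI in replicate 1 and 82.7 in replicate 2. Each molecule is counted once whatever its length, but how well the 3′ end of each gene is annotated was not tested, so differences between genes are given as UMIs and not as numbers of transcripts.

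CHRNG, the gamma subunit of the fetal receptor, had the widest range of the subunits in UMIs per 10000 UMIs, though not clearly so as a ratio between clusters. Its level was 3.95 UMIs per 10000 UMIs in replicate 1 and 4.17 in replicate 2 in cluster 12, 1.98 and 1.97 in cluster 3, and 0.704 and 0.714 in cluster 1. In clusters 4 and 5 it was 0.159 and 0.158, and 0.123 and 0.139, and in clusters 8 and 11 it was 0.0612 and 0.103, and 0.0927 and 0.0842. The last values overlapped those of cluster 9 (0.103 and 0.0730), in which 14.4% of the cells were called doublets. Without doublets, a comparison added after the data had been seen, CHRNG was at 0.0550 and 0.103 in cluster 8, 0.0859 and 0.0788 in cluster 11 and 0.0489 and 0.0327 in cluster 9, and the overlap was gone. Cluster 12 held 23.1% of all CHRNG UMIs and cluster 3 held 32.0%, and up to 27 UMIs were counted in 1 cell.

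CHRNA1, whose subunit carries the main part of the binding site for acetylcholine, followed another course. Its level was 1.24 and 1.23 in cluster 12, 0.858 and 0.841 in cluster 3, 0.755 and 0.734 in cluster 1, and 0.203 and 0.244 in cluster 8, against 0.0866 and 0.0673 in cluster 9. Cluster 1, with little MYOG, was thus close to cluster 3 in CHRNA1 but not in CHRNG. In the order of the 15 clusters, the values of neighbouring clusters overlapped between libraries in 3 of 14 pairs for CHRNA1 and in 4 of 14 for CHRNG. CHRNB1, the beta subunit, was at 0.683 and 0.706 in cluster 12, 0.485 and 0.436 in cluster 3, 0.352 and 0.359 in cluster 1 and 0.0997 and 0.104 in cluster 8. It kept the same order of clusters as CHRNA1 here, with 7 of 14 neighbouring pairs overlapping.

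CHRND, the delta subunit, was sparse outside clusters 3, 7 and 12. It was at 0.215 and 0.265 in cluster 12 and at 0.147 and 0.127 in cluster 3, but at 0.0378 and 0.0331 in cluster 1 and 0.0034 and 0.0123 in cluster 8. The 2 lowest of these values rest on 13 UMIs and overlap those of cluster 9 (0.0063 and 0.0058).

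CHRNE, the epsilon subunit of the adult receptor, had no cluster in which it stood out. In the 11 clusters with a median of more than 5000 UMIs per cell, its level ran from 0.0016 to 0.0294 in single libraries. Neighbouring clusters overlapped in 12 of 14 pairs, and cluster 9, at 0.0197 and 0.0098, lay among the higher values. In cluster 12, where CHRNG was highest, 3 CHRNE UMIs were counted.

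RAPSN, the scaffold, was already high in every cluster but cluster 9. It was at 2.70 and 2.94 in cluster 12, 2.69 and 2.81 in cluster 3, 2.60 and 2.67 in cluster 1, 1.83 and 1.88 in cluster 8 and 1.47 and 1.55 in cluster 4, against 0.302 and 0.295 in cluster 9. Clusters 3 and 12 overlapped between libraries. Cluster 8 stood 6.07-fold above cluster 9 in replicate 1 and 6.37-fold in replicate 2 for RAPSN, whereas for CHRNG the same ratios were 0.595 and 1.41. Without doublets they were 15.55 and 14.47 for RAPSN and 1.12 and 3.15 for CHRNG.

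MUSK, the kinase that receives the agrin signal, was highest in cluster 12, which held 30.3% of its UMIs, while cluster 3 held 22.5%. Its level there was 0.239 and 0.321, against 0.0655 and 0.0816 in cluster 3, 0.0373 and 0.0457 in cluster 1 and 0.0068 and 0.0098 in cluster 8. Over all cells, MUSK was 1.39-fold higher in replicate 2 than in replicate 1 (95% exact interval 1.24 to 1.57, which covers counting error only), and it was higher in replicate 2 in 14 of 15 clusters. For the other 8 genes this ratio ran from 0.817 for CHRNE to 1.09 for AGRN. The order of the clusters was the same in both libraries for the values of MUSK given above.

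DOK7, the adaptor that activates MUSK from inside the cell, was at 0.623 and 0.639 in cluster 12, 0.320 and 0.348 in cluster 3, 0.152 and 0.163 in cluster 1 and 0.0204 and 0.0282 in cluster 8. The value of cluster 8 overlapped that of cluster 9 (0.0310 and 0.0197), but not without doublets, when DOK7 was at 0.0206 and 0.0285 in cluster 8 and 0.0181 and 0.0153 in cluster 9. The shares of cells with a DOK7 UMI, taken at equal depth without doublets, still overlapped. They were 2.20% in cluster 8 (exact binomial interval 1.41% to 3.26%) and 2.08% in cluster 9 (1.26% to 3.23%). DOK7 in cluster 8 was thus not clearly above the background of cluster 9. AGRN, the ligand, was low everywhere. It was highest in the shallow cluster 7 (0.0669 and 0.0328), where 10 UMIs were counted, and among the deeper clusters it lay between 0.0032 and 0.0210 in single libraries.

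**Figure D1:**
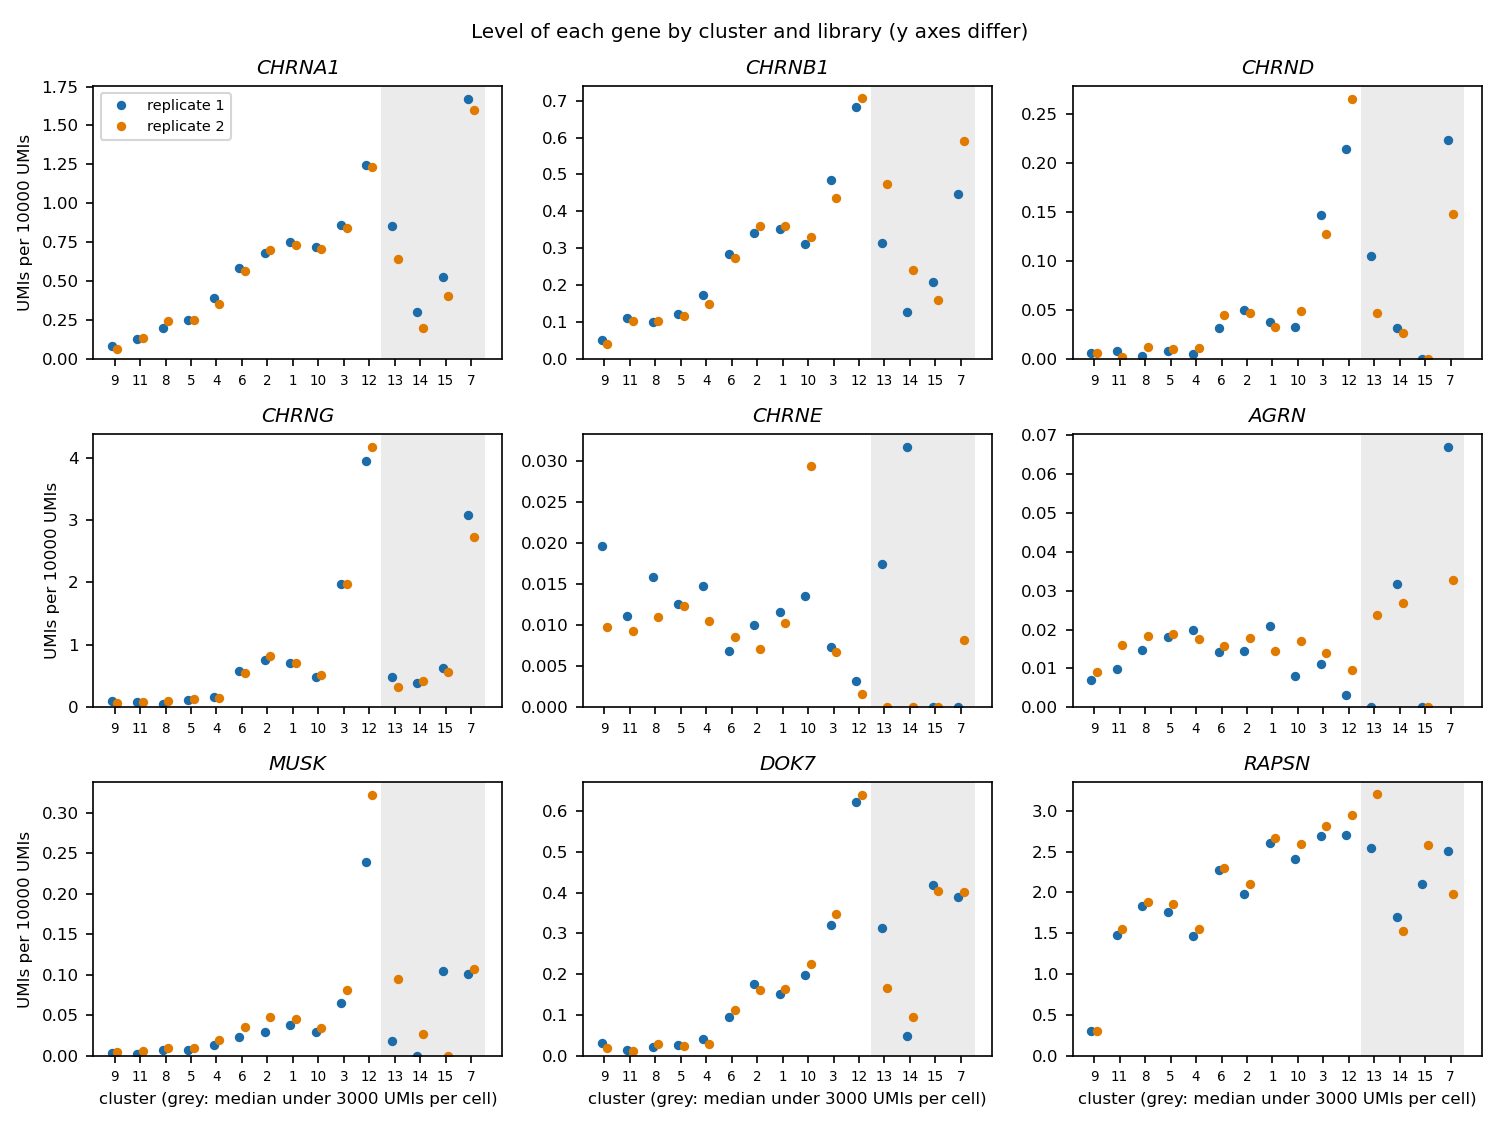
Level of each of the 9 genes (UMIs per 10000 UMIs, y axes differ) in each of the 15 clusters, with 1 point per library. Clusters 3 and 12 are at the upper end of the deeper clusters for 7 genes, whereas CHRNE and AGRN show no such rise. The shallow clusters (grey) have few UMIs per cell, but cluster 7 among them had 609 CHRNG and 345 CHRNA1 UMIs.

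Each cluster was then compared with all other cells through the UMI sums of the libraries, 2 sums against 2, with edgeR's quasi-likelihood test, Benjamini-Hochberg adjustment over all genes tested and a threshold of 0.05. The clusters had been formed on the same counts, so the calls are not independent evidence. As an alternative, each cell was given to the cluster whose profile over all genes but these 9 it matched best. This left 85.6% of cells in their cluster, and the numbers of the 9 genes called in each direction were the same in each of the 6 comparisons. The profiles were those of the authors' clusters, so this does not make the calls independent.

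In cluster 12, 7 of the 9 genes were higher than in the remaining cells. On the log2 scale the difference was 3.42 ± 0.20 (SE) for MUSK, 2.89 ± 0.05 for CHRNG, 2.75 ± 0.13 for CHRND, 2.55 ± 0.06 for DOK7, 1.64 ± 0.06 for CHRNB1, 1.46 ± 0.05 for CHRNA1 and 0.71 ± 0.05 for RAPSN. The adjusted p in edgeR ran from 6.27e-07 for CHRNG to 9.22e-05 for RAPSN. Of the 13224 genes tested, 24.8% were called higher and 29.5% lower. The median log2 fold change was 1.64 over the 9 genes and -0.09 over all genes tested. With the library sizes alone in place of TMM, this median of all genes was -0.27 and 32.0% of the calls were higher, against 45.6%, and all 7 genes were called higher there too.

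CHRNE was the gene called lower in cluster 12 (log2 fold change -1.98 ± 0.53, edgeR adjusted p = 0.0196), from 3 UMIs against 295 in all other cells. Its level was 0.222 times that of the other cells (95% exact interval 0.0455 to 0.656, counting error only). The call was lost without cluster 12 replicate 2 (edgeR adjusted p = 0.138) and with DESeq2 (0.0860). AGRN was not called (-1.08 ± 0.43, edgeR adjusted p = 0.0751), from 8 UMIs, but passed with the library as a block (0.0323), without doublets (0.0451) and without cluster 12 replicate 2 (-2.01, adjusted p = 0.0263).

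In cluster 3, the same 7 genes were higher than in all other cells, from 2.05 ± 0.13 for CHRND and 1.86 ± 0.05 for CHRNG down to 0.68 ± 0.04 for RAPSN on the log2 scale, and of the 13082 genes tested 24.5% were called higher and 25.4% lower. The edgeR adjusted p was 0.172 for CHRNE and 0.530 for AGRN. The comparisons of clusters 3, 9 and 12 with all other cells share most of their cells on the other side.

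In cluster 9, 8 of the 9 genes were lower. Of the 13205 genes tested, 27.7% were lower and 25.3% higher. The log2 fold change was -3.58 ± 0.31 for MUSK, -3.28 ± 0.12 for CHRNG, -3.17 ± 0.18 for CHRND, -2.96 ± 0.10 for CHRNA1, -2.89 ± 0.05 for RAPSN, -2.71 ± 0.10 for CHRNB1 and -2.64 ± 0.16 for DOK7. AGRN was lower by less (-1.02 ± 0.24, edgeR adjusted p = 0.0127), and this call was lost with DESeq2 (0.0811) and without cluster 9 replicate 1 (0.0769), other cells replicate 1 (0.0542) or other cells replicate 2 (0.0792). CHRNE was at 0.55 ± 0.33 (edgeR adjusted p = 0.214), and passed without cluster 9 replicate 2 (0.98, adjusted p = 0.0300).

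The level of muscle genes in cluster 9 was set against their level in all cells. It was 14.2% for CHRNA1, 16.9% for CHRNB1, 12.3% for CHRND, 11.4% for CHRNG, 9.37% for MUSK, 15.02% for RAPSN and 17.6% for DOK7, beside 12.3% for MYOG and 14.1% for MYOD1. For AGRN the share was 53.2% and for CHRNE it was 141%. In cluster 9, 14.4% of the cells were called doublets, and without doublets the shares were 6.30% for CHRNA1, 9.87% for CHRNB1, 8.47% for CHRND, 5.21% for CHRNG, 7.08% for MUSK, 6.24% for RAPSN and 11.4% for DOK7. They were then 4.57% for MYOG, 4.93% for MYOD1, 51.0% for AGRN and 147% for CHRNE.

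Clusters 8, 1, 3 and 12, in order of rising MYOG, were compared pair by pair, which shows at which step each gene differed. Between cluster 8 and cluster 1, which differ in MYOD1 by 6.003-fold and 5.62-fold and in MYOG by 6.96-fold and 9.56-fold, 7 genes were higher in cluster 1. Of the 11194 genes tested, 17.2% were higher and 16.9% lower. CHRNG was higher by 3.15 ± 0.16 on the log2 scale, DOK7 by 2.73 ± 0.18, MUSK by 2.35 ± 0.32, CHRND by 2.23 ± 0.43, CHRNB1 by 1.84 ± 0.09, CHRNA1 by 1.77 ± 0.09 and RAPSN by 0.54 ± 0.05. The edgeR adjusted p was at most 0.00485 for these, and it was 0.626 for CHRNE and 0.801 for AGRN. The libraries differed most for CHRND, with ratios of 11.1 in replicate 1 and 2.70 in replicate 2 from 13 UMIs in cluster 8. Its log2 fold change was 3.37 without cluster 8 replicate 2 and 1.58 without cluster 8 replicate 1, and it passed in both.

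Between cluster 1 and cluster 3, which differ in MYOG by 8.22-fold and 7.11-fold and in MYOD1 by 1.23-fold and 1.22-fold, 6 genes were higher in cluster 3. Of the 11362 genes tested, 21.1% were higher and 19.1% lower. CHRND was higher by 1.99 ± 0.15 on the log2 scale, CHRNG by 1.52 ± 0.05, DOK7 by 1.12 ± 0.07 and MUSK by 0.86 ± 0.18. CHRNB1 was higher by 0.41 ± 0.08 and CHRNA1 by 0.23 ± 0.05 (edgeR adjusted p = 0.0114). The call of CHRNA1 was lost with DESeq2 (adjusted p = 0.0555), without cluster 3 replicate 1 (0.0538) and without cluster 1 replicate 2 (0.0609). RAPSN was at 0.10 ± 0.04 (edgeR adjusted p = 0.105), and passed with the library as a block (0.10 ± 0.03, adjusted p = 0.000866).

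Cluster 12 had 2.73-fold and 2.84-fold more MYOG than cluster 3 in replicates 1 and 2, but its MYOD1 was 0.628 and 0.620 times that of cluster 3. Between cluster 3 and cluster 12, 8 genes could be tested and 6 were higher in cluster 12. Of the 10811 genes tested, 18.2% were higher and 15.6% lower. MUSK was higher by 2.03 ± 0.16 on the log2 scale, CHRNG by 1.13 ± 0.05, DOK7 by 1.02 ± 0.08, CHRND by 0.90 ± 0.13, CHRNB1 by 0.69 ± 0.08 and CHRNA1 by 0.64 ± 0.06. MUSK was the member with the largest value at this step. RAPSN was at 0.13 ± 0.05 (edgeR adjusted p = 0.0994), and with the library as a block it passed (adjusted p = 0.00218). AGRN was at -0.85 ± 0.53 (edgeR adjusted p = 0.261), and CHRNE had too few UMIs to be tested. With library sizes alone, 38.1% of the calls were higher, against 53.8% with TMM, and the median of all genes was -0.12 against -0.02. RAPSN was then at 0.04, and the other 6 genes were still called higher.

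From cluster 8 to cluster 12, the log2 ratio of the levels was 6.01 in replicate 1 and 5.34 in replicate 2 for CHRNG, 2.62 and 2.34 for CHRNA1, and 0.557 and 0.643 for RAPSN. For CHRNA1, 72.5% and 68.0% of this rise lay between clusters 8 and 1, where both MYOD1 and MYOG differ. The share was 47.8% and 44.1% for MUSK, and 90.4% and 78.3% for RAPSN. For CHRND it was 58.1% and 32.3%, from 13 UMIs in cluster 8. These shares are descriptions, and the differences between genes were not tested.

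**Figure D2:**
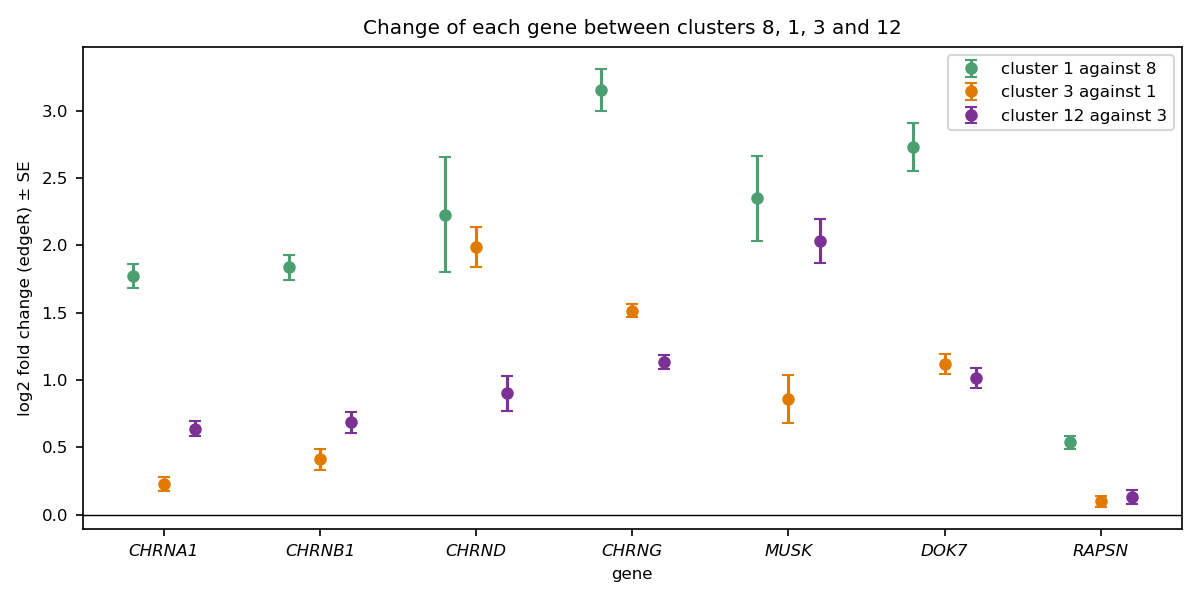
Log2 fold change of 7 genes from edgeR (bars are SE) at each of 3 steps, cluster 1 against 8, cluster 3 against 1 and cluster 12 against 3. All 7 genes have their largest value at the first step, but for CHRND this holds in replicate 1 only. Its log2 ratios at the first and second steps were 3.48 and 1.96 in replicate 1 and 1.43 and 1.94 in replicate 2. CHRNA1, CHRNB1 and RAPSN have values under 0.7 afterwards. CHRND, CHRNG, DOK7 and MUSK stay above 0.7 at both later steps, and MUSK is raised by 2.03 at the last.

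Because the subunits were not raised equally, the make-up of the receptor's UMIs differed between clusters. CHRNG gave 15.98% of the UMIs of the 5 subunits in replicate 1 and 21.7% in replicate 2 in cluster 8, 37.8% and 38.6% in cluster 1, 56.9% and 58.3% in cluster 3 and 64.8% and 65.4% in cluster 12. CHRNA1 gave 53.0% and 51.4% in cluster 8 but 20.4% and 19.3% in cluster 12, although its own level was highest there among the deeper clusters. The share of CHRND was 2.03% and 1.79% in cluster 1 and 3.52% and 4.16% in cluster 12. CHRNE gave at most 0.626% in clusters 1, 2, 3 and 12, and its largest share was in cluster 9 (7.41% and 5.0%), where 618 subunit UMIs were counted. It was 4.14% and 2.33% in cluster 8, 3.14% and 2.81% in cluster 11 and 2.42% and 2.34% in cluster 5. A share depends on how well each gene is captured. The size of its change between clusters depends on this too, so neither can be carried over to other data.

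**Figure D3:**
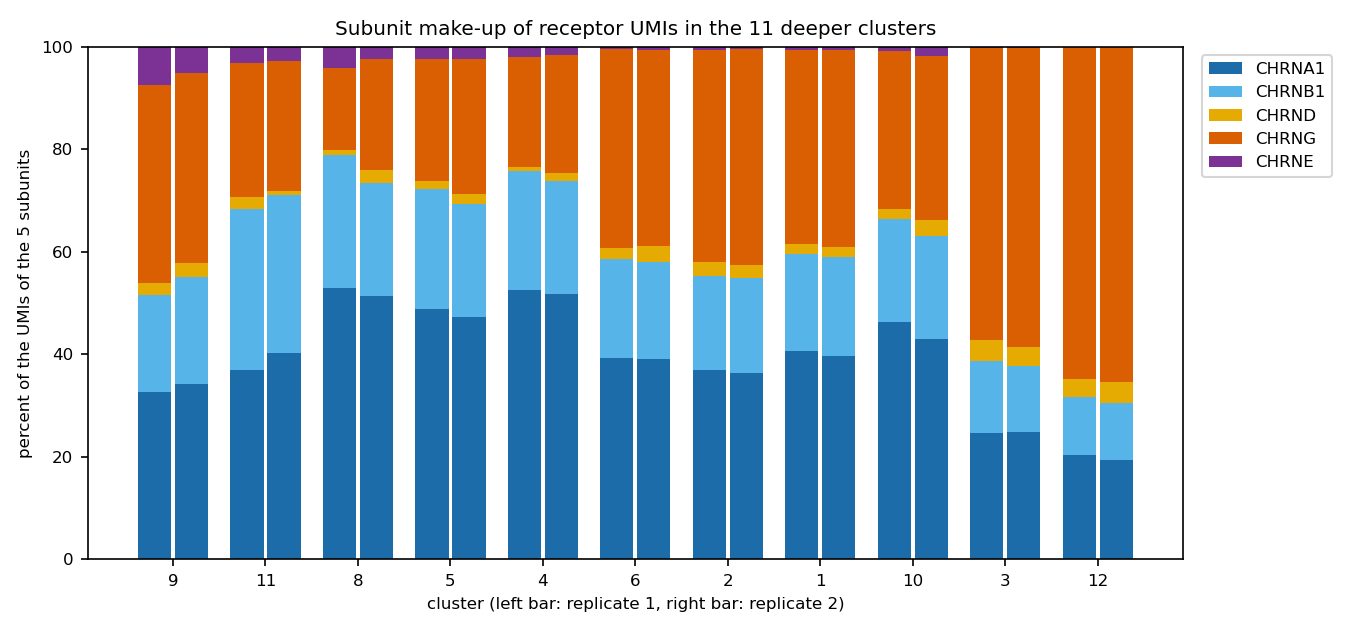
Percent of the UMIs of the 5 receptor subunits that each subunit gave in the 11 deeper clusters, with 1 bar per library. CHRNG widens from 15.98% and 21.7% in cluster 8 to 64.8% and 65.4% in cluster 12, and CHRNE stays a thin band that is widest in cluster 9.

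The same genes were followed without clusters, by the UMIs of MYOD1 and MYOG in each cell after every cell with at least 10000 UMIs had been thinned to that number. Cluster 9 was left out. Among cells with no MYOG UMI, CHRNA1 was at 0.159 and 0.193 UMIs per 10000 in the libraries where no MYOD1 UMI was seen, at 0.388 and 0.391 with 1 or 2, and at 0.595 and 0.570 with 3 to 5. It was at 0.620 and 0.667 with 10 or more, so most of the difference lay at the low end of MYOD1. CHRNG went from 0.111 and 0.154 to 0.607 and 0.618, DOK7 from 0.0241 and 0.0272 to 0.159 and 0.150, and RAPSN from 1.62 and 1.56 to 2.26 and 2.32. CHRND was at 0.0083 and 0.0122 with no MYOD1 UMI and at 0.0431 and 0.0304 with 10 or more. A cell without a UMI of MYOG may still have expressed it.

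Along MYOG, the genes parted. CHRNG was at 0.408 and 0.404 in cells without a MYOG UMI, 1.98 and 1.83 with 3 to 9, and 3.16 and 3.83 with 30 or more. CHRNA1 was at 0.445 and 0.445, 0.908 and 0.904, and 1.10 and 1.23 in the same cells. RAPSN was at 1.99 and 2.04, 2.66 and 2.67, and 2.59 and 2.55, with 2.63 and 2.89 between the last of these, at 10 to 29 UMIs. MUSK was at 0.0180 and 0.0295 without a MYOG UMI and at 0.319 and 0.333 with 30 or more, where 69 and 78 cells were counted. Without doublets, an alternative chosen after the data had been seen, CHRNG was at 0.405 and 0.402 without a MYOG UMI and at 2.01 and 1.83 with 3 to 9.

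**Figure D4:**
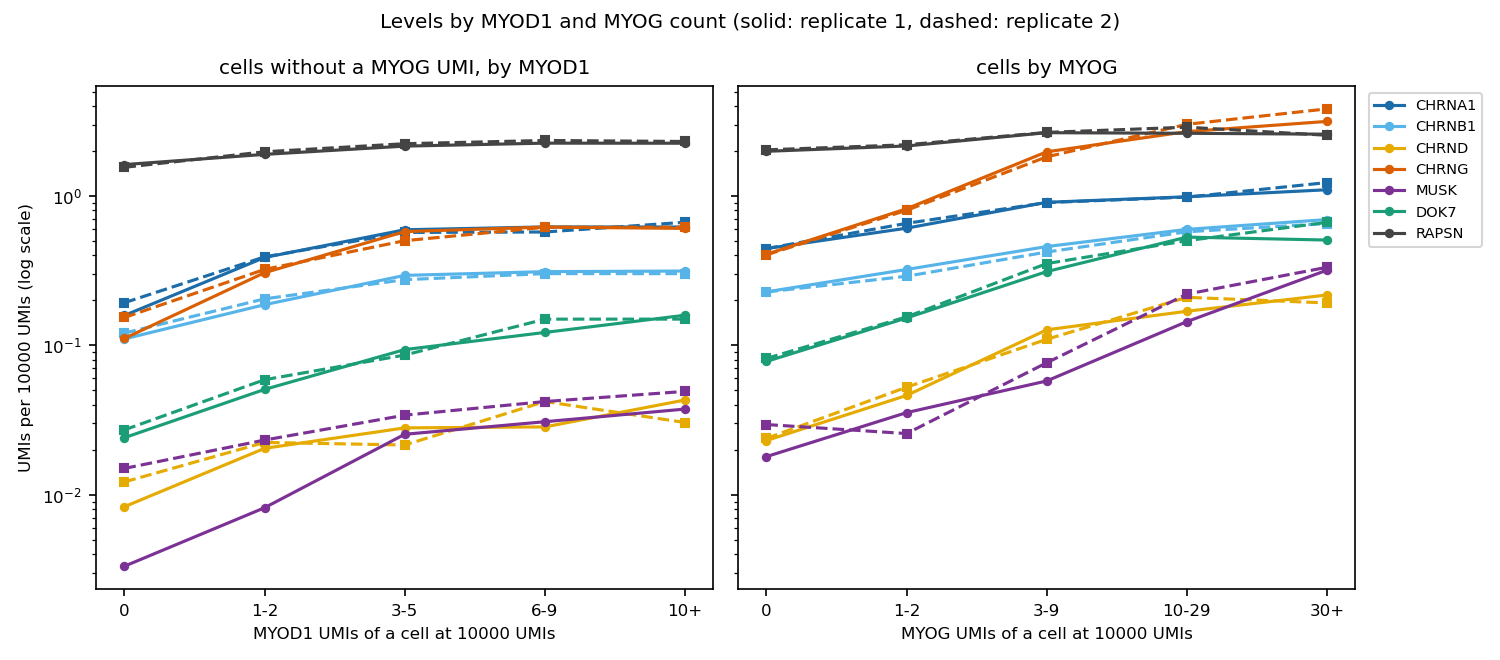
Level of 7 genes (UMIs per 10000 UMIs, log scale) in cells thinned to 10000 UMIs and outside cluster 9, by MYOD1 UMIs among cells with no MYOG UMI (left) and by MYOG UMIs (right), with solid lines for replicate 1 and dashed lines for replicate 2. Along MYOD1, CHRNA1 and CHRNG both change little above 3 to 5 UMIs, and along MYOG CHRNA1 reaches 1.10 and 1.23 and CHRNG 3.16 and 3.83.

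In single cells, detection was compared at the same 10000 UMIs in 14672 cells, leaving out 4424 shallower ones. Clusters 7, 13, 14 and 15 then had fewer than 50 cells each and are not given. CHRNG was seen in 95.5% of the 597 cells of cluster 12 (95% exact binomial interval 93.5% to 97.0%), in 78.9% of cluster 3 and 40.2% of cluster 1. In cluster 8 the share was 6.45% and in cluster 9 it was 5.34% (4.07% to 6.87%), and the intervals of these shares overlapped (5.08% to 8.07% in cluster 8). Without doublets the share was 6.32% in cluster 8 (4.95% to 7.94%) and 3.62% in cluster 9 (2.50% to 5.04%), whose bounds still met. Before thinning, when the median was 19113 UMIs per cell in cluster 12 and 23011 in cluster 9, the shares were 97.8% and 12.5%. The intervals cover counting error only.

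For the other genes, the share of cells in clusters 12 and 9 was 67.5% and 5.90% for CHRNA1, 49.1% and 2.91% for CHRNB1, 22.1% and 0.281% for CHRND, 23.8% and 0.469% for MUSK, 41.9% and 2.62% for DOK7 and 90.6% and 17.4% for RAPSN. RAPSN was thus seen in most cells of cluster 12, and MUSK and CHRND in a minority at this depth. CHRNE was seen in 1 cell of cluster 12 (0.168%, interval 0.0042% to 0.930%) and in 1.22% of cluster 9, and AGRN in 0.503% and 1.41%, so neither passed the background of cluster 9. RAPSN (81.5%), CHRNA1 (17.7%) and CHRNB1 (9.73%) were above that background in cluster 8, with and without doublets.

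The messages of all 4 fetal subunits, CHRNA1, CHRNB1, CHRND and CHRNG, were seen together in 6.20% of the cells of cluster 12 (interval 4.401% to 8.44%), 2.47% of cluster 3 and 0.437% of cluster 1. They were seen in 0 of 1100 cells of cluster 8, which allows a share of up to 0.273%, and in 0 of 1067 cells of cluster 9, which allows up to 0.281% (3 cells of the total). These limits are for cells with a UMI of each at this depth, not for cells that express the genes. None of the 4 was seen in 0.670% of cluster 12, 6.81% of cluster 3, 22.5% of cluster 1, 70.9% of cluster 8 and 87.2% of cluster 9. Within cluster 3, CHRND was seen in 12.3% of the 1563 cells with CHRNG (10.7% to 14.01%) and in 5.74% of the 418 cells without it (3.71% to 8.42%). For RAPSN these shares were 92.4% and 92.6%.

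**Figure D5:**
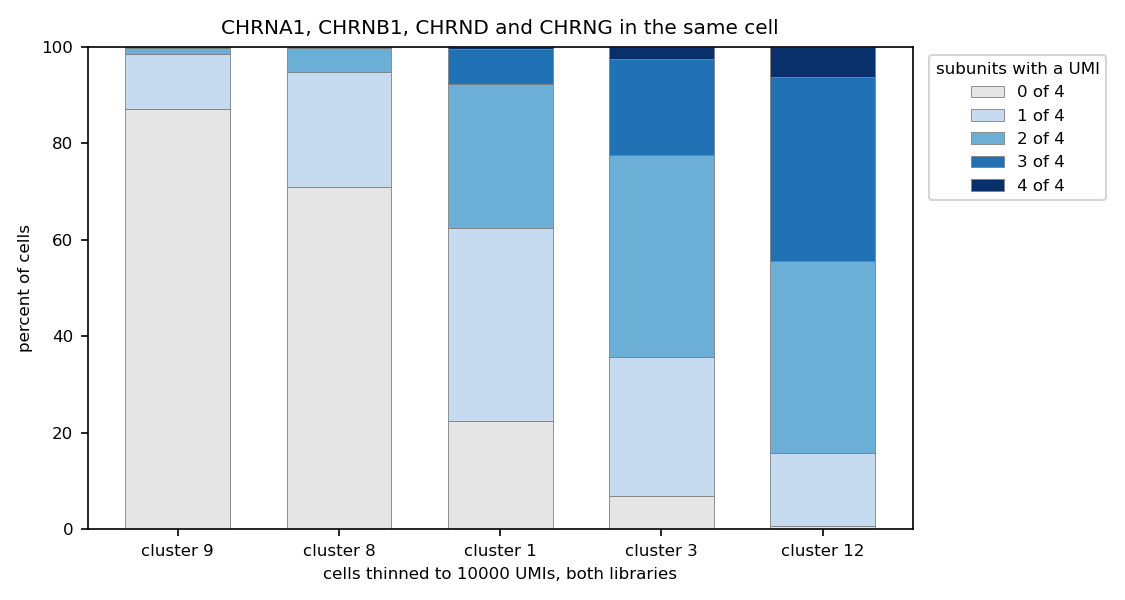
Percent of cells (thinned to 10000 UMIs, both libraries) in which 0 to 4 of CHRNA1, CHRNB1, CHRND and CHRNG had a UMI, in clusters 9, 8, 1, 3 and 12. Cells without any of the 4 go from 87.2% in cluster 9 to 0.670% in cluster 12.

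The genes that work with the receptor differed in both directions. Of 32 further genes of the postsynaptic membrane and its signalling, 29 could be tested in cluster 12 against all other cells, and 13 were higher and 9 lower, with a median log2 fold change of 0.48. Over all genes tested there, 24.8% were higher and 29.5% lower with a median of -0.09. Higher were ERBB3, a receptor for neuregulin (5.51 ± 0.17), SCN4A, the sodium channel of muscle (4.08 ± 0.24), and ACHE, the esterase that breaks down acetylcholine (3.34 ± 0.23). Lower were the kinases FYN (-1.88 ± 0.08) and PAK1 (-1.57 ± 0.11). NRG1, which encodes neuregulin, had 0 UMIs in cluster 12 and 105 elsewhere, and was at least 1.60-fold lower there against a floor of 3 UMIs. Over both libraries its level was highest in cluster 9 (0.0246), followed by clusters 7 (0.0142) and 10 (0.0077). It was 0 in cluster 1 and at most 0.0006 in clusters 2, 3 and 6. These values lie under the floor of cluster 12 (0.0024), so NRG1 does not set cluster 12 apart from clusters 1, 2, 3 and 6. LRP4, named after its values were seen as the co-receptor that carries agrin to MUSK, had 8 UMIs in cluster 12 and was not called (0.79 ± 0.79, edgeR adjusted p = 0.446).

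ERBB3 and ACHE separated cluster 12 from cluster 3. ERBB3 was at 0.246 and 0.318 UMIs per 10000 in the libraries in cluster 12 but at 0.0106 and 0.0152 in cluster 3. ACHE was at 0.0699 and 0.0911 against 0.0058 and 0.0067, while it was at 0.0310 and 0.0328 in cluster 9 and 0.0669 and 0.0410 in the shallow cluster 7.

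A list of 12 genes was drawn up under the heading of receptor assembly and glycosylation, and the role of each gene at the receptor was not examined. Of the 11 tested, 4 were higher in cluster 12, beside 24.8% of all genes, and the median was 0.02, beside -0.09. TMEM35A, a chaperone of nicotinic receptors, was higher by 1.76 ± 0.08, PREPL by 1.14 ± 0.07 and GFPT1, which feeds the glycosylation pathway, by 0.49 ± 0.12. Over both libraries, GFPT1 was no higher in cluster 12 (0.238) than in cluster 3 (0.253). TMEM35A was at 0.376 and 0.433 in cluster 12, 0.270 and 0.256 in cluster 3, 0.148 and 0.141 in cluster 1 and 0.0408 and 0.0344 in cluster 8, the same order as CHRNG. Of 16 regulators of synaptic genes, 6 of the 14 tested were higher and 2 lower, beside 24.8% and 29.5% of all genes. MEF2C, a muscle transcription factor, was higher by 5.83 ± 0.10, HDAC9 by 4.05 ± 0.67 from 11 UMIs and MYOG by 3.96 ± 0.06. GABPB1, a subunit of the factor that binds synaptic promoters, was lower (-0.66 ± 0.18), and so was MYF5 (-0.57 ± 0.10). Over both libraries, GABPB1 was at 0.0492 in cluster 12, near clusters 3 (0.0532) and 1 (0.0598), against 0.120 in cluster 2 and 0.122 in cluster 4. MYOD1 was not called against all other cells (0.15 ± 0.07, edgeR adjusted p = 0.101), although it was lower in cluster 12 than in cluster 3 in both libraries.

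The subunits of neuronal nicotinic receptors were nearly absent. Of 11 such genes, CHRNA10 was not in the gene list and 6 had 0 UMIs. CHRNA3, the only one with enough UMIs to be tested (117), had 0 in cluster 12, at least 1.79-fold lower than in all other cells against a floor of 3 UMIs, and 23 in cluster 9. Its level over both libraries in clusters 1 (0.0024) and 3 (0.0008) was not above the floor of cluster 12 (0.0024). CHRNA3 thus does not set cluster 12 apart from clusters 1 and 3.

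Markers of nerve and glia were examined as well. Of 10 motor neuron genes, 5 had 0 UMIs in all cells, among them CHAT, SLC18A3 and MNX1, and the summed level of the list was 0.0016 in both libraries in cluster 12 and 0.0909 and 0.0755 in cluster 9, where ISL1 gave most of it. Among the glial genes, the defining SOX10 and FOXD3 had 0 UMIs, and the summed level was 0.551 and 0.518 in cluster 12 against 0.201 to 0.839 over all clusters and libraries. S100B gave nearly all of it in cluster 12 (0.550 and 0.508), whereas NGFR (0.169 and 0.158) exceeded S100B (0.142 and 0.138) in cluster 9. In cluster 12, S100B was higher than in all other cells (0.96 ± 0.08) and NGFR lower (-1.90 ± 0.49), while ISL1 was lower (-3.52 ± 0.81). Over both libraries, NGFR was at 0.0056 in cluster 12 and 0.0034 in cluster 3, and ISL1 at 0.0008 and 0.0006. Both were highest in clusters 9 (0.164 and 0.0804) and 7 (0.128 and 0.0567), so they do not set cluster 12 apart from cluster 3. Of 6 fibro-adipogenic genes, 5 were lower in cluster 12, such as PPARG (-2.07 ± 0.24), LUM (-2.01 ± 0.12) and PDGFRA (-1.45 ± 0.16), and 1, ZNF423, was higher (1.11 ± 0.13). PPARG was at 0.0097 in cluster 12 and 0.0079 in cluster 3 over both libraries, and PDGFRA at 0.104 and 0.0922. These 2 genes peaked in clusters 9 (0.2885 and 1.583) and 7 (0.0898 and 1.522), so their calls do not set cluster 12 apart from cluster 3. LUM was at 0.634 in cluster 12, under cluster 3 (1.249). The summed level of the 6 fibro-adipogenic genes was 15.8 and 14.3 in cluster 12, 38.3 and 39.2 in cluster 9 and 106 and 103 in cluster 8. COL1A1, named like DCN after the values were seen, gave most of it (11.7, 24.6 and 83.3 over both libraries). COL1A1, DCN and LUM were lower in cluster 9 than in cluster 8, whereas PDGFRA, PPARG and ZNF423 were higher. All 8 genes of differentiated muscle were higher in cluster 12, led by CKM (6.88 ± 0.12), MYH3 (5.55 ± 0.07) and MYMK (5.47 ± 0.08). Over all genes tested there, 24.8% were higher and 29.5% lower. The authors had named this cluster by several of the muscle genes, such as MYOG, MYH3 and MYMK, so these calls are not independent of its name. Of 5 satellite cell and myoblast genes, DES was higher (2.75 ± 0.06) and MYF5 and PAX7 lower, PAX7 with 0 UMIs in cluster 12. In cluster 3 PAX7 was at 0.0017 over both libraries, under the floor of 3 UMIs in cluster 12 (0.0024), so it does not set these clusters apart.

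Clusters 2 and 4, and clusters 6 and 11, were chosen as pairs after their values had been seen, like the genes TOP2A and MCM5. Both clusters of a pair were high in a gene of the cell cycle, but they differed in MYOD1. The pairs were not tested. TOP2A, which is needed in mitosis, was at 6.23 and 5.22 in cluster 2 and 8.10 and 6.88 in cluster 4, so it was lower in cluster 2 in both libraries. MCM5, which is needed to copy DNA, was at 2.60 and 2.61 in cluster 6 and 2.70 and 2.64 in cluster 11. MYOD1 was 2.60-fold and 2.36-fold higher in cluster 2 than in cluster 4, and 4.67-fold and 3.87-fold higher in cluster 6 than in cluster 11.

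The receptor genes differed within both pairs. CHRNG was 4.80-fold and 5.20-fold higher in cluster 2 than in cluster 4, DOK7 4.41-fold and 5.64-fold, CHRNA1 1.75-fold and 1.98-fold and RAPSN 1.35-fold in both libraries. Between clusters 6 and 11, CHRNG differed 6.21-fold and 6.55-fold, CHRNA1 4.44-fold and 4.22-fold, and RAPSN 1.54-fold and 1.49-fold. MYOG also differed, 8.33-fold and 7.75-fold in the first pair and 7.91-fold and 5.38-fold in the second. Doublets, which were kept here, were 9.58% of cluster 2, 10.2% of cluster 4, 17.2% of cluster 6 and 4.73% of cluster 11. The ratios of these pairs were not computed without them. With doublets kept, receptor messages above those of cluster 9 were not limited to clusters low in TOP2A and MCM5.

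The shallow cluster 7 had CHRNA1 at 1.67 and 1.60 and CHRNG at 3.08 and 2.73, from 345 and 609 UMIs. Its MYOG was 0.10 and 0.0886 times that of cluster 12, its CHRNA1 1.34 and 1.30 times and its MUSK 0.420 and 0.332 times. The cluster had a median of 1389 UMIs per cell, MYH3 at 5.10 in replicate 1 and the fibro-adipogenic list at 160 and 164. COL1A1, at 146 over both libraries, gave most of the list. The part that the cluster's low depth has in these values was not tested.

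Over the 22 sums of the 11 deeper clusters and both libraries, the likeness of the members was computed on the scale log2(UMIs per 10000 + 0.01). Pearson's r was 0.98 between CHRNA1 and CHRNB1, 0.98 between CHRND and CHRNG, 0.98 between CHRNG and DOK7 and 0.96 between CHRNG and MUSK. Over all 30 sums, with the shallow clusters, these were 0.94, 0.86, 0.92 and 0.83. CHRNE had -0.65 to -0.32 with the other receptor genes and 0.32 with AGRN, and AGRN had -0.37 to 0.26 with the other 7. CHRNA1 had 0.91 with MYOD1 and 0.80 with MYOG, whereas CHRNG had 0.79 with MYOD1 and 0.96 with MYOG. RAPSN had 0.62 with CHRNG and 0.83 with CHRNA1. Over all 30 sums, CHRNA1 had 0.78 with MYOD1 and 0.70 with MYOG, and CHRNG had 0.65 and 0.89. With 0.1 in place of 0.01 on the scale, CHRNA1 had 0.74 and 0.71 over the 30 sums. These are descriptions, since the sums share their libraries, their depth and the genes that formed the clusters.

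Over all 30 sums, the genes with the most similar pattern were NEB (r = 0.97) and SGCA (0.97) for CHRNG, DDR1 (0.96) and MFSD10 (0.95) for CHRNA1, RBM24 (0.96) and CD82 (0.95) for CHRNB1 and MYPN (0.95) and MDFIC2 (0.94) for CHRND. They were JAM3 (0.95) and FNDC5 (0.95) for DOK7, GPR37L1 (0.91) and DUSP13 (0.91) for MUSK and SYNGR2 (0.92) and PTGIS (0.91) for RAPSN. NEB encodes nebulin of the thin filament and SGCA a sarcoglycan of the muscle membrane. For the sparse CHRNE (CAMK2N2, 0.81, and SLBP2, 0.79) and AGRN (ZIC4 and DECR2), r fell to between 0.53 and 0.74 in the deeper clusters alone. The ranks of other genes also moved there. Among 12037 genes, NEB and RBM24 kept rank 1 in the deeper clusters, whereas DDR1 and MYPN each had rank 13, DUSP13 rank 42 and GPR37L1 rank 90.

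In the RefSeq annotation of a later assembly, ARS-UCD2.0, which was used for neighbours only, CHRND and CHRNG lie next to each other. CHRNB1 overlaps ZBTB4, which had 4925 UMIs, and CHRNE overlaps C19H17orf107, which had 3, and whether reads of overlapping genes were told apart by strand was not tested. RAPSN overlaps no gene there.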

How the data were processed

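Single-cell RNA sequencing was done on 2 libraries of cultured satellite cells. Cell Ranger 3.0.2 was used by the authors with the ARS-UCD1.2 genome and Ensembl annotation, and they thinned the libraries to equal mapped reads per cell and deposited UMI counts per gene and cell, called cells and 15 graph-based clusters. The deposited cluster averages are a score, the mean UMI count per gene scaled so that each cluster sums to 14889. The deposited table also holds the authors' log2 fold changes and p-values between clusters, which were not used.

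Cells were placed in their clusters by solving the averages against the counts in 30 rounds, after which 0 of 252240 sums over gene and cluster differed. Levels are UMIs of a gene per 10000 UMIs of a cluster and library. Counts were summed per library and cluster and tested with the quasi-likelihood test of edgeR 4.0.16 in R 4.3.3, with TMM, filterByExpr and Benjamini-Hochberg adjustment over all genes tested, without a block. On simulated counts with 200 genes changed 3-fold, 79.5% were recovered for cluster 12 against all other cells (13224 genes) and 90% for cluster 12 against cluster 3 (10811 genes). Of the genes called there, 2.45% and 2.70% were false. Far fewer genes were changed in the simulation than were called in the data, so it does not measure recovery in the data. Sums with the same replicate number come from the same library, and their deviations correlated (r = 0.40 to 0.67 over genes), so the library number pairs them. Shares of cells carry exact 95% binomial intervals. Doublets were called with Scrublet (scanpy 1.11.5, threshold 0.25) and kept. Alternatives were DESeq2 1.42.0, library sizes without TMM, no filter, the block, no doublets, no cells under 2000 UMIs, cells assigned by profile, all 30 sums in 1 fit for comparisons of single clusters, and each sum left out in turn.

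The 9 genes and all lists were chosen with earlier results of these data known. Besides the 9 genes, the rule named at most 3 genes called in each direction per list in cluster 12, the 2 genes most like each member over the 30 sums, and the genes that define clusters. Of the marker lists, 1 gene is not reported here.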

Additional observations from a re-analysis of the deposited data

How the results depend on the processing

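Of 604 alternative values for 53 log2 fold changes of the 9 genes, 584 kept their direction and their side of the threshold, 9 lost the call, 6 gained it and 5 changed sign, all 5 without a call. Members lower in cluster 12 against all other cells numbered 1, but 0 with DESeq2, 2 with the library as a replicate block, 2 without doublets and 0 to 1 with a sum left out, where CHRNE was no longer tested without a sum of the other cells. Members higher in cluster 9 numbered 0, and 0 to 1 with a sum left out. For CHRNE, the log2 fold change ran from -0.0467 to 0.98 in cluster 9 over all alternatives. In cluster 1 against cluster 8 it ran from -0.51 to 0.04 with a sum left out, and from -1.06 to 0.04 over all alternatives. It was 0.0038 in cluster 3 against cluster 1 with cells assigned by profile. For AGRN in cluster 1 against cluster 8 it ran from -0.17 to 0.39, with -0.0003 without cluster 8 replicate 1. The cause was not tested.

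With the library as a replicate block, RAPSN also passed in cluster 3 against cluster 1 and in cluster 12 against cluster 3, and AGRN passed in cluster 12 against all other cells; the block changed no other call of the 9 genes. Over all genes, DESeq2 called 2268 genes against 3650 with edgeR in cluster 12 against cluster 3, 2860 against 4562 in cluster 3 against cluster 1, and 2398 against 3812 in cluster 1 against cluster 8. In cluster 3 against all other cells, 32.4% of the calls were higher with library sizes alone, against 49.1% with TMM. CHRNE and AGRN are limited by their 298 and 428 UMIs.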
